A study of Mus musculus with 10 samples.

Results

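The transcripts of 9 genes that mark cartilage and bone cells were followed in interscapular brown adipose tissue (iBAT) of wild-type mice and of mice labelled as lacking matrix Gla protein (*Mgp*). The genes were *Sox9*, *Sox5*, *Sox6*, *Runx2*, *Acan*, *Comp*, *Spp1*, *Alpl* and *Bglap*, taken by name from the 27267 genes of the normalized count table. All 9 were listed, and 7 of them were among the 13714 genes that averaged 10 normalized counts or more, which were the genes tested. *Runx2* and *Bglap* were under that level, and *Comp* and *Spp1*, with wild-type means of 5.41 and 4.29, reached it only through the *Mgp*-KO-labelled libraries, so a higher level there was a condition of their being tested. *Sox9*, *Acan* and *Comp* were higher in every library labelled *Mgp*-KO than in every wild-type library, at 3.13, 3.20 and 4.51 times the wild-type mean. Such a separation in that direction was seen for 1.39% of all tested genes. *Sox5* and *Spp1* were each above every wild-type library in 4 of the 5 *Mgp*-KO-labelled libraries. *Alpl* was lower on average, and *Bglap* was at or near 0 throughout. After adjustment over all tested genes, 0 of the 7 tested members passed the threshold of 0.05 in the limma comparison of all libraries, where 0.0656% of tested genes passed, and for 6 of the 7 the unadjusted p was under 0.05, beside 10.4% of all tested genes. When the model also held whether a library was of replicates 1 to 3 or of 4 and 5, 1 member passed in limma (*Acan*), where 2.36% of tested genes did, and 5 passed in DESeq2, where 7.07% did.

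The study compared iBAT of 5 wild-type and 5 global *Mgp* knock-out males, all C57BL/6 mice of 4 weeks on standard chow. The knock-out allele, tm1Kry, is a germ line allele present in all cell types, and the labels give neither group another allele or agent. The unit of every value is the normalized count, which is the number of reads on a gene divided by a size factor for its library. Every value could be turned back into a whole number of reads, so reads are also given. Nothing in the labels says how many litters the animals came from, and p-values measure the spread between these 10 libraries. In bulk tissue, fewer cells of a type and less RNA per cell cannot be told apart.

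The libraries did not all match their labels or each other. *Mgp* had 485 to 805 reads in the wild-type libraries and 0 to 1 reads in the libraries labelled *Mgp*-KO 1, 2 and 3, but 309 and 282 reads in those labelled *Mgp*-KO 4 and 5, which goes against the label. The names *Mgp*-KO 1 to 5 stand for the libraries so labelled. *Xist*, which is transcribed in females, was at 5094 normalized counts in wild type 2 although all mice are labelled male. Replicates 1 to 3 held 19616366 to 22252260 reads and replicates 4 and 5 held 9253793 to 13281873, with 0.771 to 1.72% and 6.50 to 16.7% of reads on mitochondrial ribosomal RNA. The labels name no batch, so the comparison was repeated in each of these sets of replicates. *Ucp1*, the uncoupling protein of brown fat, was at 2201 normalized counts or more in all 10 libraries.

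MGP is a secreted protein of vessel walls and cartilage that keeps calcium salts from precipitating and binds bone morphogenetic proteins (BMPs). Mice without it are known for calcified arteries in which cartilage-like cells appear. In cartilage, SOX9 with its partners SOX5 and SOX6 switches on matrix genes such as *Acan*, and in bone RUNX2 switches on matrix and mineral genes such as *Spp1* and *Bglap*. ALPL then breaks down pyrophosphate, the main brake on mineral growth.

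Promoter windows show where the letters bound by these factors lie in the members themselves, and those of 5 members are shown because they cover both programs. The RefSeq table of GRCm38.p6 held 14 windows for 7 of the 9 members, each with 250 bases before and 50 bases after an annotated start, and *Sox9* and *Comp* had no entry. The core letters ACCACA of RUNX factors and ACAAT of SOX factors were searched on both strands, and they read TGTGGT and ATTGT on the other strand. No RUNX match overlapped a SOX match in the member windows. Matches are in capitals.
*Runx2* (chr17:44814578-44814877, minus strand): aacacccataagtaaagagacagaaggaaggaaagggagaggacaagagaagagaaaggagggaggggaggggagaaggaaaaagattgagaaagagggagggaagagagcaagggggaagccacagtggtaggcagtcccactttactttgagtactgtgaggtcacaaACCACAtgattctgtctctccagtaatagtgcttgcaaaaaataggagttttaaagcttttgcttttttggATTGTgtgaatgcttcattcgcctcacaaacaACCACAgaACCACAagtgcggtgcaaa
*Spp1* (chr5:104434861-104435160, plus strand): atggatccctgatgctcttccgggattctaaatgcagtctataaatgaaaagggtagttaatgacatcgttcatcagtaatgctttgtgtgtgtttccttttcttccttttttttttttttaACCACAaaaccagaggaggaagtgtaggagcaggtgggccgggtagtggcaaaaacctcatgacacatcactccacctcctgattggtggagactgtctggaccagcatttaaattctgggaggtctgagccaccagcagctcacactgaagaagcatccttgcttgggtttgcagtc
*Bglap* (chr3:88384417-88384716, minus strand): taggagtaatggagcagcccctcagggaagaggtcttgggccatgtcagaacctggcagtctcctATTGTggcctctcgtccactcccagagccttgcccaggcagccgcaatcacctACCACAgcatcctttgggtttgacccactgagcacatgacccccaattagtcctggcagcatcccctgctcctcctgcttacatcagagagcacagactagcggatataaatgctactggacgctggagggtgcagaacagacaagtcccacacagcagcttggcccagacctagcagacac
*Acan* (chr7:79052976-79053275, plus strand): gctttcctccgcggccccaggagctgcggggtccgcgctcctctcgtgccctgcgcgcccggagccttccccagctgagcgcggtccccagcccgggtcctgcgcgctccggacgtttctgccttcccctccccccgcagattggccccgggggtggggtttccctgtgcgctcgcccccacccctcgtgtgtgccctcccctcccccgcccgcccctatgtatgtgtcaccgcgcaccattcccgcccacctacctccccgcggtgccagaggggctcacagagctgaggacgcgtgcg
*Sox5* (chr6:143947057-143947356, minus strand): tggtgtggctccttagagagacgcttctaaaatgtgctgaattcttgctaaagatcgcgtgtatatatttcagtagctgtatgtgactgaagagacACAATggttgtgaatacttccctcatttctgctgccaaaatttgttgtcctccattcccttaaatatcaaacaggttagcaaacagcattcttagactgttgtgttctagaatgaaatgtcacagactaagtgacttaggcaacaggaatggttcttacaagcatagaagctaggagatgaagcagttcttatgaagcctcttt
The *Runx2* window held 3 RUNX matches and 1 SOX match, that of *Spp1* held 1 RUNX match, that of *Bglap* held 1 of each, that of *Sox5* held 1 SOX match and that of *Acan* held none. *Spp1* had another window, not shown, that held no match, and of the 14 member windows, 6 of them of *Sox6*, 5 held a RUNX match and 7 a SOX match. Of all 32851 windows in the table, 16.8% held a RUNX match and 31% held a SOX match. Such matches are descriptions of letters and not of binding.

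*Sox9*, the transcription factor without which cartilage does not form, was higher in all 5 *Mgp*-KO-labelled libraries. The gene lies at chr11:112782224-112787760 on the plus strand (GRCm38). Its normalized counts were 31.5, 35.2, 32.4, 13.2 and 26.0 in wild type 1 to 5, against 73.1, 43.6, 49.3, 178.1 and 87.9 in *Mgp*-KO 1 to 5. The groups did not overlap, and wild type 4 was the lowest and *Mgp*-KO 4 the highest of the 10 libraries. The means were 27.6 ± 8.74 and 86.4 ± 54.3 (SD, n = 5 each), a ratio of 3.13. On the log2(normalized count + 1) scale the difference was 1.49 ± 0.40 (SE), with an adjusted p of 0.200 in limma. The two-sided exact permutation test of this single gene gave p = 0.00794, the smallest that 5 against 5 libraries allow.

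The size of the *Sox9* difference depended on which libraries were compared. Within replicates 1 to 3 the means were 33.0 ± 1.94 and 55.3 ± 15.7 (SD, n = 3), a ratio of 1.68, and within replicates 4 and 5 they were 19.6 ± 9.03 and 133.0 ± 63.7 (SD, n = 2), a ratio of 6.79. Each set kept its *Mgp*-KO-labelled libraries above its wild-type libraries, as was so for 4.54% of all tested genes. The difference between the sets in this effect was 1.995 ± 0.57 on the log2 scale and did not pass in limma (adjusted p = 0.455), where 0.00729% of tested genes did. It passed when *Mgp*-KO 5 was left out (adjusted p = 0.027), as did 11.8% of all tested genes, 4.36% in the same direction. In that fit *Mgp*-KO 4 was the lone *Mgp*-KO-labelled library of its set and was assumed to vary like the other groups. *Mgp*-KO 4 also held the highest summed level of the 10 endothelial markers, 61293 normalized counts against 19544 to 32812 in wild type. It was likewise highest for the 10 adipose progenitor markers, at 14796 against 5513 to 7858, and for the further cartilage genes, at 1114 against 554 to 682. It had the fewest reads of all libraries, 9253793, and the largest share on mitochondrial ribosomal RNA, 16.7%. The part of these in its *Sox9* value was not tested. Without *Mgp*-KO 4 the ratio of *Sox9* was 2.30 and the groups still did not overlap.

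*Sox5* and *Sox6* code for partner proteins that bind beside SOX9, and both are also used outside cartilage. *Sox5* was at 148.1, 205.2, 188.9, 123.1 and 126.3 normalized counts in wild type 1 to 5, against 270.6, 238.7, 330.1, 339.9 and 184.1 in *Mgp*-KO 1 to 5. The groups overlapped only through *Mgp*-KO 5, which lay below wild type 2 and 3. The means of 158.3 ± 37.1 and 272.7 ± 64.9 (SD, n = 5) gave a ratio of 1.72 and a log2 difference of 0.78 ± 0.23 (SE), with an adjusted p of 0.225 in limma. The exact permutation p of *Sox5* alone was 0.0238. *Sox5* lies on chromosome 6 at 143828425 to 144781977, 6.95 megabases from *Mgp*, and 8.98% of its windows of 50 bases, the length of a read, also occur in other genes, mainly an antisense transcript.

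*Sox6*, at chr7:115470872-116038796 on the minus strand, differed more between the sets of replicates than between the genotypes. Its normalized counts were 1550, 1399, 1386, 762.2 and 719.9 in wild type 1 to 5, against 2276, 1976, 2061, 705.8 and 913.2 in *Mgp*-KO 1 to 5. In both groups replicates 4 and 5 lay far below replicates 1 to 3. The difference between the sets was -1.17 ± 0.14 on the log2 scale and passed in limma (adjusted p = 1.54e-04), as did 38.2% of all tested genes, 19.9% with a lower level in replicates 4 and 5. No other tested member passed for the set. Over all libraries the *Sox6* difference between genotypes was 0.37 ± 0.37 (SE, adjusted p = 0.782).

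Within replicates 1 to 3, *Sox6* was the only member to pass in limma, where 3.54% of all tested genes did, 1.9% in the higher direction. Its means there were 1445 ± 91.0 and 2104 ± 155 (SD, n = 3), a ratio of 1.46 and a log2 difference of 0.54 ± 0.11 (adjusted p = 0.0458). The call was close to the threshold: edgeR gave an adjusted p of 0.0593, DESeq2 gave 0.00420, and the limma call was lost when wild type 1, 2 or 3 or *Mgp*-KO 1 or 3 was left out. A replicate block, which is a term for the replicate number, also ended the limma call (adjusted p = 0.107). Within replicates 4 and 5 the means of 741.0 ± 29.9 and 809.5 ± 147 (SD, n = 2) overlapped. SOX6 is also a regulator of muscle fibre type, and the summed level of 10 skeletal muscle markers ranged from 43.4 to 6360 normalized counts in wild type and from 39.4 to 38101 in the *Mgp*-KO-labelled libraries. Their part in the *Sox6* values was not tested.

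*Runx2*, the factor that commits cells to bone, was close to the limit of detection. The gene spans chr17:44495987-44814797 on the minus strand. It had 7, 14, 6, 1 and 2 reads in wild type 1 to 5 and 16, 13, 13, 5 and 7 reads in *Mgp*-KO 1 to 5. These correspond to 1.47 to 10.5 normalized counts in wild type and to 8.09 to 12.1 in the *Mgp*-KO-labelled libraries. Only wild type 2 lay within the *Mgp*-KO-labelled range. The means were 4.97 ± 3.36 and 9.80 ± 1.68 (SD, n = 5), a ratio of 1.97, and the exact permutation p was 0.0317. Fitted without the filter on low values, *Runx2* had an adjusted p of 0.718 in limma. Antisense and overlapping transcripts share 5.66% of its windows of 50 bases, and the strand setting of the counting was not given.

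**Figure D1:**
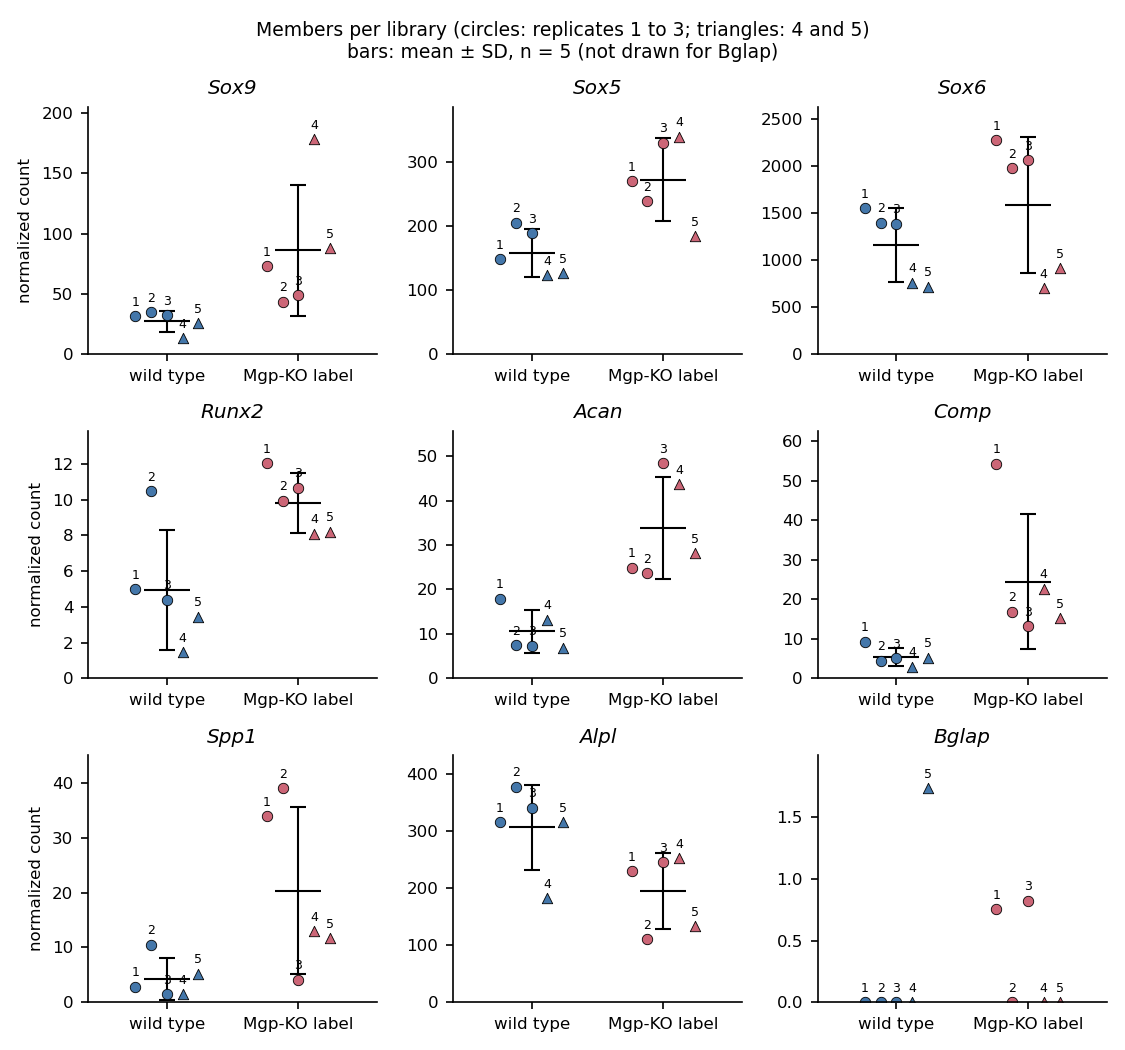
Normalized counts of the 9 members in each library, with wild type on the left and the *Mgp*-KO-labelled libraries on the right of each panel; numbers are replicates, and bars give the mean ± SD (n = 5) except for *Bglap*. The groups do not overlap for *Sox9*, *Acan* and *Comp*, *Sox6* falls apart by set of replicates, and *Alpl* is lower on average in the *Mgp*-KO-labelled libraries.

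*Acan* and *Comp* code for proteins of the cartilage matrix, and both were higher in all 5 *Mgp*-KO-labelled libraries. *Acan*, the large proteoglycan aggrecan that holds water in cartilage, was at 17.9, 7.49, 7.35, 13.2 and 6.92 normalized counts in wild type 1 to 5. In *Mgp*-KO 1 to 5 it was at 24.9, 23.7, 48.5, 43.7 and 28.1. Its lowest *Mgp*-KO-labelled library, 2, lay above its highest wild-type library, 1. The means were 10.6 ± 4.84 and 33.8 ± 11.5 (SD, n = 5), a ratio of 3.20. The log2 difference was 1.62 ± 0.38 (SE), with an adjusted p of 0.125 in limma over all libraries and an exact permutation p of 0.00794. When the set of replicates was a term of the model, *Acan* passed in limma (adjusted p = 0.0434), as did 2.36% of all tested genes, and 0.824% in the higher direction.

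*Comp*, cartilage oligomeric matrix protein, which is also made by tendon, rested on 2 to 13 reads per wild-type library. Its normalized counts were 9.30, 4.49, 5.15, 2.93 and 5.19 in wild type 1 to 5, against 54.3, 16.8, 13.1, 22.7 and 15.2 in *Mgp*-KO 1 to 5. *Mgp*-KO 1 stood far above the other libraries. The means of 5.41 ± 2.36 and 24.4 ± 17.1 (SD, n = 5) gave a ratio of 4.51, and the ratio was 3.14 without *Mgp*-KO 1. The log2 difference was 1.86 ± 0.48 (SE), with an adjusted p of 0.170 in limma and an exact permutation p of 0.00794. *Comp* was among the tested genes only because of its level in the *Mgp*-KO-labelled libraries. The 5 listed tendon markers summed to 30.8 to 84.5 normalized counts in wild type and to 46.9 to 81.9 in the *Mgp*-KO-labelled libraries. Their part in the *Comp* values was not tested.

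Both matrix genes were higher without overlap in either set of replicates. Of all tested genes 15.5% were so in replicates 1 to 3, 20.3% in replicates 4 and 5 and 4.54% in both. For *Acan* the ratio was 2.97 in replicates 1 to 3 and 3.57 in the other set, and for *Comp* it was 4.45 and 4.67. The difference of the genotype effect between the sets was 0.25 ± 0.76 for *Acan* and 0.22 ± 0.93 for *Comp* on the log2 scale, and neither passed in limma (adjusted p = 0.909 and 0.937), which does not show that the sets were alike. *Acan* lies at chr7:79053483-79115099 and *Comp* at chr8:70373558-70382066, and no window of 50 bases of either occurs in another annotated transcript.

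*Spp1*, osteopontin, is a phosphoprotein of bone matrix that macrophages also release, and its levels varied widely among the libraries. The gene lies at chr5:104435118-104441050. It was at 2.86, 10.5, 1.47, 1.47 and 5.19 normalized counts in wild type 1 to 5, from 1 to 14 reads. In *Mgp*-KO 1 to 5 it was at 33.9, 39.0, 4.11, 13.0 and 11.7, from 5 to 51 reads. *Mgp*-KO 1 and 2 were the highest. *Mgp*-KO 4 and 5 also lay above every wild-type library, and *Mgp*-KO 3 lay within the wild-type range. The means were 4.29 ± 3.78 and 20.3 ± 15.2 (SD, n = 5), a ratio of 4.74, which was 7.40 without wild type 2. The log2 difference of 1.91 ± 0.69 (SE) had an adjusted p of 0.332 in limma, and the exact permutation p was 0.0317. *Spp1* too was tested only because of its level in the *Mgp*-KO-labelled libraries. Of the 12 macrophage markers 11 were tested, 8 of these lay above 0 in their log2 difference and none passed. *Lgals3*, galectin-3, was at 40.8, 53.9, 30.1, 38.1 and 45.0 normalized counts in wild type 1 to 5 and at 73.9, 71.1, 82.1, 210.4 and 78.5 in *Mgp*-KO 1 to 5. Its groups did not overlap, and its log2 difference of 1.18 had an adjusted p of 0.200 in limma, or 0.060 with the set term. The next in size were *Itgam* at 0.86, *Gpnmb* at 0.57 and *Cd14* at 0.40. *Itgam* was at 126.3 normalized counts in *Mgp*-KO 4 and at 13.8 to 38.7 in the other *Mgp*-KO-labelled libraries. Close to 0 were *Csf1r* at 0.02, *Adgre1* at -0.03, *Mrc1* at -0.04 and *C1qa* at -0.06. Within replicates 1 to 3, 5 of the 11 lay above 0, with a median of -0.01. *Trem2*, which was under the filter, was at 2.93 to 5.99 normalized counts in wild type and 5.75 to 16.1 in the *Mgp*-KO-labelled libraries. All 12 had summed levels of 1277 to 2304 in wild type and 1653 to 2334 in the *Mgp*-KO-labelled libraries. Their part in the *Spp1* values was not tested.

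*Alpl*, tissue-nonspecific alkaline phosphatase, was the 1 tested member with a lower mean in the *Mgp*-KO-labelled libraries. It lies at chr4:137741733-137796384 on the minus strand. Its normalized counts were 314.8, 377.4, 340.4, 181.8 and 314.9 in wild type 1 to 5, against 229.9, 110.9, 245.5, 252.5 and 133.6 in *Mgp*-KO 1 to 5. Wild type 4 was low for its group and lay within the *Mgp*-KO-labelled range. The means were 305.8 ± 73.9 and 194.5 ± 66.9 (SD, n = 5), a ratio of 0.636. The log2 difference was -0.69 ± 0.29 (SE), with an adjusted p of 0.426 in limma and an exact permutation p of 0.0714. The groups were apart in the first set of replicates and not in the other. Within replicates 1 to 3 the groups did not overlap, at 314.8 to 377.4 and 110.9 to 245.5, with a ratio of 0.568. Of all tested genes 15.1% were lower without overlap in that set. There the adjusted p was 0.140 in limma and 0.0475 in DESeq2, in which 9.64% of tested genes passed, 4.61% as lower. Within replicates 4 and 5 the groups overlapped, and the sign of the log2 difference of -0.38 ± 0.47 turned when wild type 5 or *Mgp*-KO 5 was left out.

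Brown fat cells are also known to transcribe *Alpl*, and their markers were lower on average as well. Of 10 brown adipocyte markers 9 had a log2 difference below 0, with a median of -0.40 beside 0.03 for all tested genes. The largest were *Elovl3*, a fatty acid elongase, at -3.65, *Dio2*, the deiodinase that activates thyroid hormone, at -3.35, *Ucp1* at -2.70 and *Plin1*, a lipid droplet protein, at -1.29. None of the 10 passed in limma over all libraries, and 3, *Ucp1*, *Dio2* and *Elovl3*, were lower when the set was a term, beside 1.54% of all tested genes in that direction. The part of these cells in the *Alpl* values was not tested.

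*Bglap*, osteocalcin, the late marker of bone-forming cells, was not detectable beyond single reads. The gene lies at chr3:88383501-88384464. It had 1 read in wild type 5, 1 read in *Mgp*-KO 1 and 1 read in *Mgp*-KO 3, and 0 reads in the other 7 libraries. A count of 0 allows up to 3 reads, or 2.15 to 4.86 normalized counts in these 7 libraries, and this limit covers counting error only. A difference between the groups was not detectable at this depth, and the exact permutation p was 1. Of the windows of 50 bases in *Bglap*, 56.6% also occur in *Bglap2* or *Bglap3*, its near-identical neighbours, and neither had a row of its own in the table, so the count is uncertain.

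**Figure D2:**
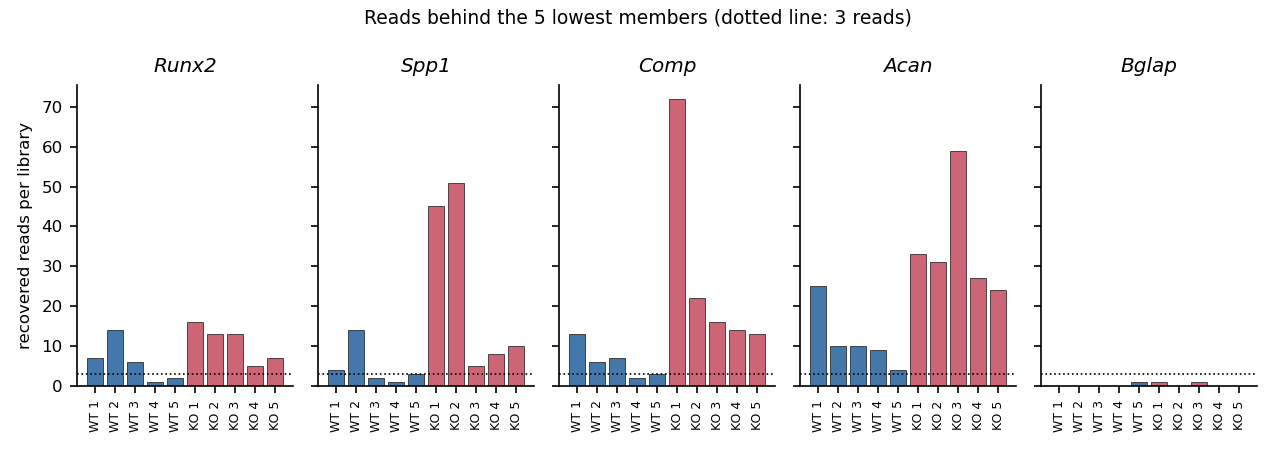
Recovered reads per library of the 5 members with the lowest means, blue for wild type (WT) and red for the *Mgp*-KO-labelled libraries (KO), with a dotted line at 3 reads. *Acan* has 4 to 25 reads in wild type and 24 to 59 in the *Mgp*-KO-labelled libraries, while *Bglap* has at most 1 read in any library.

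Per kilobase of annotated exon, which allows levels to be set against each other, the members spanned a wide range. *Sox6* and *Alpl* were the most abundant in wild type, at 78.5 ± 26.4 and 75.8 ± 18.3 normalized counts per kilobase (SD, n = 5), and did not differ beyond their spread. *Sox5* followed at 11.0 ± 2.58 and *Sox9* at 6.68 ± 2.11. *Spp1* at 2.61 ± 2.29, *Comp* at 1.82 ± 0.79 and *Acan* at 1.42 ± 0.65 lay within each other's spread, and *Runx2* and *Bglap* were the lowest at 0.56 ± 0.38 and 0.56 ± 1.25. In the *Mgp*-KO-labelled libraries the levels of *Sox9* and *Sox5* were 20.9 ± 13.1 and 19.0 ± 4.51, followed by *Spp1* at 12.3 ± 9.23, *Comp* at 8.23 ± 5.75 and *Acan* at 4.52 ± 1.54. *Sox6* at 107.0 ± 48.6 stayed above all of them, and *Alpl* was at 48.2 ± 16.6.

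Over all libraries, 3 of the 7 tested had groups that did not overlap, all higher in the *Mgp*-KO-labelled libraries, beside 1.39% of all tested genes. Within replicates 1 to 3 the groups were apart and higher for 5 tested members, *Sox9*, *Sox5*, *Sox6*, *Acan* and *Comp*, beside 15.5% of all tested genes, and apart and lower for *Alpl*, beside 15.1%. Within replicates 4 and 5 they were apart and higher for *Sox9*, *Sox5*, *Acan*, *Comp* and *Spp1*, beside 20.3%, and also for *Runx2*, which was not tested. The 4 genes *Sox9*, *Sox5*, *Acan* and *Comp* were higher without overlap in both sets, where 4.54% of all tested genes were. The median log2 difference of the 7 tested members was 1.49 over all libraries, 0.69 within replicates 1 to 3 and 1.77 within replicates 4 and 5. Over all tested genes these medians were 0.03, 0.02 and 0.02. *Comp* and *Spp1* entered through their level in the *Mgp*-KO-labelled libraries, and without them the medians of the other 5 tested members were 0.78, 0.63 and 0.9986. These counts and medians are descriptions only.

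The outcome for the members depended on the test across all genes. Of the 6 members with an unadjusted p under 0.05 in limma over all libraries 5 were higher, beside 10.4% of all tested genes and 4.67% in the higher direction. These 5 include *Comp* and *Spp1*, which were tested only because of their level in the *Mgp*-KO-labelled libraries, so the count is a description only. DESeq2 on the recovered reads called *Sox9* (adjusted p = 0.0149), *Acan* (adjusted p = 0.00925) and *Comp* (adjusted p = 0.0133), with 2.49% of its tested genes called, 1.1% as higher. With that term for the set DESeq2 also called *Sox5* (adjusted p = 0.00869) and *Spp1* (adjusted p = 0.0382), and 7.07% of its genes passed, 3.31% as higher. edgeR called 0 members over all libraries, where 0.0219% of tested genes passed, and for 6 the unadjusted p was under 0.05, beside 11.4%. The sign of every log2 difference of the 7 over all libraries was the same in each alternative run.

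**Figure D3:**
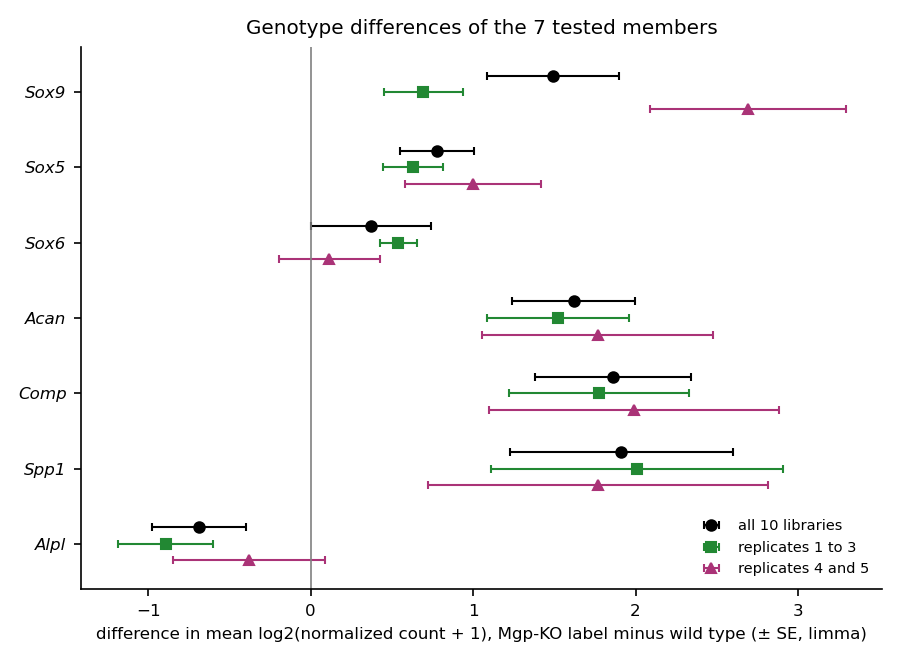
Difference in mean log2(normalized count + 1) between the *Mgp*-KO-labelled libraries and wild type for the 7 tested members, with the standard error from limma, over all 10 libraries (circles), replicates 1 to 3 (squares) and replicates 4 and 5 (triangles). *Acan* and *Comp* lie close together in all 3 comparisons, and *Sox9* ranges from 0.69 to 2.69.

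Leaving out the libraries labelled *Mgp*-KO 4 and 5, in which *Mgp* was read, kept the directions of all 7. The log2 differences were then 1.01 for *Sox9*, 0.84 for *Sox5*, 0.93 for *Sox6*, 1.54 for *Acan*, 1.98 for *Comp*, 2.13 for *Spp1* and -0.69 for *Alpl*. Of the 7, 0 passed in limma, beside 1.95% of all tested genes, and 6 had an unadjusted p under 0.05, beside 18.5%. *Sox6* moved from 0.37 to 0.93, in a comparison that kept wild type 4 and 5, and both groups were lower for *Sox6* in that set. Within replicates 1 to 3 its difference was 0.54. Within replicates 4 and 5 alone limma called 0 genes, and 3 members, *Sox9*, *Sox5* and *Acan*, were higher at an unadjusted p under 0.05, beside 2.96% of all tested genes.

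The wider cartilage program was mostly at low levels in this tissue. Of 22 further cartilage genes 19 were listed and 6 were tested, none passed in limma over all libraries, and their median log2 difference was 0.03, the same as for all tested genes. *Col2a1*, the collagen that defines cartilage, had at most 1.51 normalized counts in any library, and *Col9a1* and *Matn3* were at 0 reads in 9 of the 10. *Pth1r*, the parathyroid hormone receptor of growth plate and bone, went the other way, at 108.7, 186.4, 276.4, 98.2 and 205.9 normalized counts in wild type and 46.0, 42.1, 51.7, 79.3 and 43.4 in the *Mgp*-KO-labelled libraries. Its log2 difference was -1.65, with an adjusted p of 0.058 in limma over all libraries, and it passed with the set term (adjusted p = 0.021) and within replicates 1 to 3 (adjusted p = 0.030). *Prg4*, a lubricant of joint surfaces, was at 0.53 and *Trps1*, a repressor of chondrocyte maturation, at 0.25 on the same scale. The genes under the filter did not share a direction, as 3 chosen after their values were seen show. *Cnmd*, chondromodulin, was at 0 to 5.24 normalized counts in wild type and 3.24 to 18.1 in the *Mgp*-KO-labelled libraries. *Col10a1*, the collagen of hypertrophic cartilage, was at 1.47 to 13.8 and 0 to 2.34, and *Col11a1*, another cartilage collagen, at 2.93 to 8.24 and 0 to 9.80.

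The wider bone program held both regulators at or near 0 reads and abundant matrix genes that connective tissue also makes. Of 23 further bone genes 19 were listed and 9 were tested, none passed in limma over all libraries, and the median log2 difference was -0.16. *Postn*, a matrix protein of periosteum and other connective tissue, had the largest difference, -0.82 (adjusted p = 0.225), and was lower with the set term (adjusted p = 0.022). *Col1a2* and *Col1a1*, the chains of type I collagen, were at -0.71 and -0.69, and *Sparc*, osteonectin, at -0.31. The regulators *Sp7*, *Dlx3* and *Msx2*, which act with or after RUNX2, had mean levels of 1.13 normalized counts or less in both groups, and *Sp7* reached 4.11 in *Mgp*-KO 3. *Dmp1*, a marker of osteocytes, had 0 reads in 5 of the 10 libraries.

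Osteoclasts, the cells that resorb bone, were followed by 8 markers. Of these 8 osteoclast markers 4 were tested, with a median log2 difference of -0.25 and no call over all libraries. *Acp5*, a phosphatase of osteoclasts and macrophages, was lower in all 5 *Mgp*-KO-labelled libraries, at 1004 to 2001 normalized counts against 2525 to 4122 in wild type. Its log2 difference was -1.04, with an adjusted p of 0.094 in limma, and it passed with the set term (adjusted p = 0.024). *Ctsk*, the collagen-cutting protease of osteoclasts, was at -0.64. *Tnfrsf11a*, the receptor that starts their formation, was at 0.48 and *Mmp9*, a gelatinase, at 0.15, while *Calcr* had 0 reads in 7 of the 10 libraries.

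**Figure D4:**
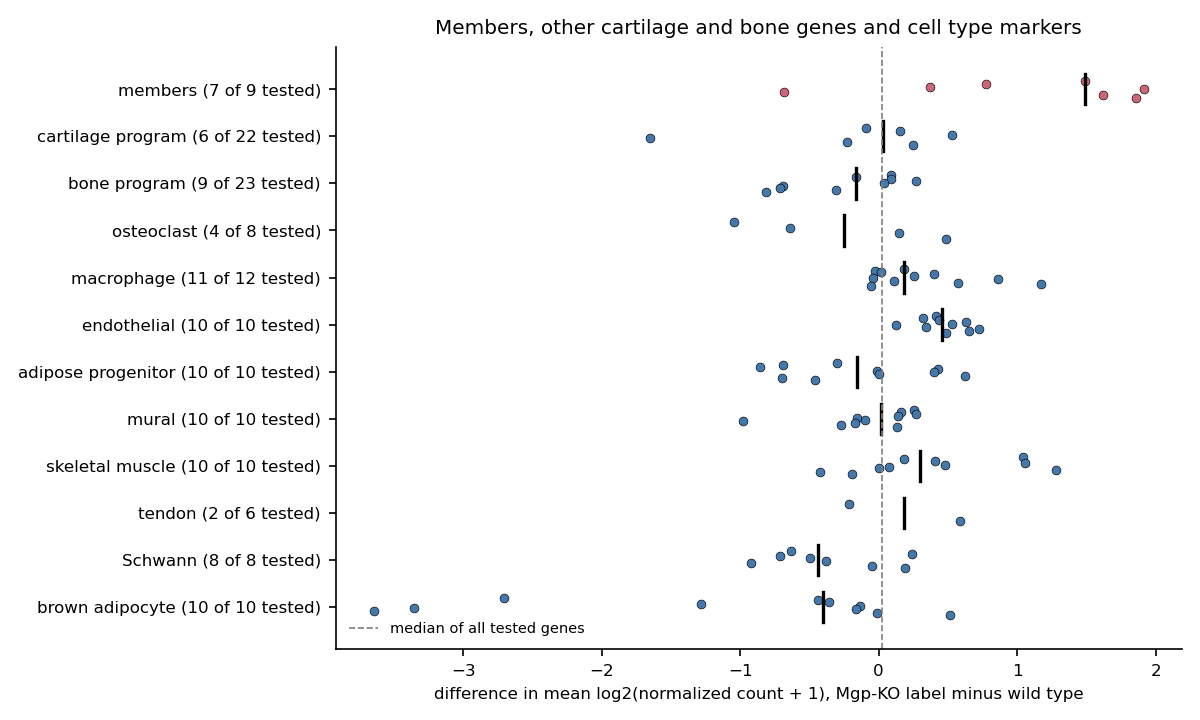
Difference in mean log2(normalized count + 1) between the *Mgp*-KO-labelled libraries and wild type over all 10 libraries, 1 point per tested gene, for the members and for other gene lists; thick lines are list medians and the dashed line is the median of all tested genes. The 7 tested members have a median of 1.49, or 0.78 without *Comp* and *Spp1*, which passed the filter only through the *Mgp*-KO-labelled libraries, and the other cartilage and bone genes have medians of 0.03 and -0.16.

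Other cell types of the tissue were followed by their markers, of which none passed in limma over all libraries. All 10 endothelial markers had a log2 difference above 0 over all libraries, with a median of 0.46, and they included *Cldn5* at 0.73, *Egfl7* at 0.65, *Flt1* at 0.63 and *Tie1* at 0.53. Adipose progenitor markers had a median of -0.16 with 4 of 10 above 0, from *Pi16* at -0.85, *Lum* at -0.70 and *Dpp4* at -0.69 to *Dcn* at 0.62. Mural cell markers had a median of 0.02, with *Cspg4* at -0.98 the farthest from 0. Schwann cell markers had a median of -0.44, with *Pmp22*, a myelin protein, at -0.92, *Sox10* at -0.64 and *Mbp* at -0.50. Skeletal muscle markers had a median of 0.30, with *Tnnc2* at 1.28, *Myh1* at 1.06 and *Acta1* at 1.04, and their level differed widely within both groups. The part of these cell types in the values of the members was not tested.

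The genes whose pattern over the 10 libraries was most like that of a member, after subtraction of the mean of each set of replicates, were found for the 4 members with a mean of at least 50 normalized counts. For *Sox9* they were *Msmp*, *Zfpm2* and *Mlkl*, with Pearson's r of 0.982, 0.978 and 0.975. For *Sox5* they were *Usp28*, *Cd84* and *Crtc3*, with r of 0.976, 0.952 and 0.951. *Sox6* was most like *Nceh1*, *Il17rb* and *Pqlc1*, with r of 0.968, 0.964 and 0.962, and *Alpl* most like *Fbln7*, *Pofut1* and *Morc4*, with r of 0.983, 0.969 and 0.968. These are the highest of 13714 values over libraries that share depth and genotype, and they are given as descriptions without a test. Among the members themselves *Sox9* was most like *Sox5* (r = 0.855) and *Comp* (r = 0.815), and *Alpl* ran against *Sox6* (r = -0.704).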

How the data were processed

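RNA of iBAT from 5 wild-type and 5 *Mgp*-KO males was measured, grouped and numbered as the labels give it. The authors aligned 50-base single reads to mm10 with STAR, counted them on genes and divided the counts by DESeq2 size factors, and the deposited values are this normalized signal per gene. The annotation release and strand setting were not given in the sources used here. All values (100%) were whole multiples of 1 read within 0.01 reads, and the recovered reads, 9253793 to 22252260 per library, were used in edgeR 4.0.16 and DESeq2 1.42.0.

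Genes averaging 10 normalized counts or more were tested with limma 3.58.1 in R 4.3.3 (eBayes with trend) on log2(normalized count + 1), a scale that understates changes of low genes, with Benjamini-Hochberg adjustment over all 13714. Models compared the groups over all libraries and in each set of replicates (1 to 3, 4 and 5), the interaction of group and set, and the set itself. Single genes were compared with a two-sided exact permutation test, unadjusted, for each of the 9 members. With 3 against 3 libraries its smallest p is 0.1 and with 2 against 2 it is 0.333. The fits were tested on simulated data. Alternatives were other pseudocounts, filters and scaling, a replicate block, a set term, edgeR, DESeq2 and the removal of libraries.

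The members and lists were chosen with earlier results of these data known. Besides the members and *Mgp*, named genes were up to 4 of each list with the largest differences, defining markers, and 3 genes of most similar pattern for each member with a mean of at least 50. Coordinates and exon lengths come from GENCODE M21 (GRCm38), and promoters from RefSeq. Data on cultured cells and other assays were not analysed here.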

Additional observations from a re-analysis of the deposited data

Results flagged for a closer look

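Among the 5 libraries labelled *Mgp*-KO, *Comp* in replicate 1, at 54.27 normalized counts, stood apart from the other 4, which were at 13.1 to 22.7. By chance about 1 in 20 groups holds a library this far from the rest, and 20 groups were looked at. *Bglap* in wild type 5, at 1.73 normalized counts, stood apart from 4 libraries at 0, which any single read in 1 of 5 libraries would give, so that rate does not apply to it.

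The effect of genotype on *Mgp* itself differed between replicates 4 and 5 and replicates 1 to 3 by 7.16 on the log2 scale, with an adjusted p of 2.51e-04 in limma. The libraries labelled *Mgp*-KO 4 and 5 held 309 and 282 reads of *Mgp*, and those labelled *Mgp*-KO 1 to 3 held 0 to 1.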

How the results depend on the processing

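Over all libraries the 7 tested members kept the sign of their log2 difference in all 22 to 23 alternatives run for each. The number of genes called was 9 in limma and became 29 with a pseudocount of 10, 1 without the filter, 15 with a mean of at least 50, 324 with the set term, 267 without *Mgp*-KO 4 and 5, 3 in edgeR, 53 in edgeR without the filter, 386 in DESeq2, 1135 in DESeq2 with the set term, and 0 to 93 when each library was left out. The number of members called was 0, and became 1 with the set term (*Acan*), 3 in DESeq2 and 5 in DESeq2 with the set term, and stayed at 0 when each library was left out. Within replicates 1 to 3, limma called 486 genes and 1 member (*Sox6*), edgeR 0 members, edgeR without the filter 912 genes and 1 member (*Comp*, adjusted p = 0.0465, with *Sox6* at 0.0728), DESeq2 1372 genes and 4 members (*Sox6*, *Alpl*, *Acan* at 0.0378 and *Comp* at 0.0188), and leaving out each library gave 26 to 811 genes and 0 to 1 members. Within replicates 4 and 5 DESeq2 called 58 genes, none a member, where limma called 0, also when each library was left out. There, leaving out each library gave log2 differences of -0.836 to 0.0774 for *Alpl*, above 0 without wild type 5 (0.02) or *Mgp*-KO 5, and of -0.0696 to 0.302 for *Sox6*, below 0 without *Mgp*-KO 5. For the interaction, leaving out each library gave 1 to 1612 genes and 0 to 1 members, and for the set 4313 to 5389 genes and 1 to 2 members. The causes were not tested.

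Libraries of the same replicate number correlated in their deviations from group means by 0.0559 to 0.527, with 1 of 5 pairs under 0.1, so the numbers were not taken as pairs. With the replicate block limma called 270 genes and no member over all libraries, and 265 genes and 0 members within replicates 1 to 3. In edgeR with the replicate block 222 genes and 1 member (*Comp*, adjusted p = 0.0492) were called.

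*Runx2*, *Spp1*, *Comp* and *Bglap* had 3 reads or fewer in at least 1 wild-type library, which limits their ratios. The alternatives that left out libraries within replicates 4 and 5, from the interaction or from the set difference, that used edgeR within a set, that left edgeR unfiltered, and the block within replicates 4 and 5 were chosen after the data were seen.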
